A study of Mus musculus with 15 samples.

Results

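The Rab genes of mouse beta cells encode the small GTPases of vesicle traffic. Every listed symbol that begins with Rab and a digit was taken, and the genes for proteins that bind or regulate Rab proteins, together with a pseudogene, were left out. That gave 57 genes of the 22924 genes kept, from 67 Rab symbols of which 10 were dropped. All 57 were listed once in each table with a usable value. The libraries were poly-A RNA-seq of sorted islet cells from mice of a mixed 129J and C57BL/6 background, in which cre recombination switches on red fluorescent protein (RFP) in beta cells, or cells that once were beta cells. RFP-positive cells were split by a fluorescent substrate of aldehyde dehydrogenase into ALDH- and ALDH+ cells. By the labels the control mice were triple heterozygous for Foxo1, Foxo3 and Foxo4, so that they too carried disrupted alleles, and the Foxo knockout mice were knockout for all 3. The study's methods instead give the RIP-Cre controls of the sort as wild-type at these loci, and the difference could not be settled here. Of the 15 libraries, 3 were ALDH- and 2 ALDH+ from control mice, and 5 of each class came from Foxo knockout mice. RIP-Cre, under a rat insulin promoter that acts in beta cells, was carried by control ALDH- replicates 1 and 2, control ALDH+ replicate 1 and Foxo knockout replicates 1 to 3 of both classes. Pdx-Cre, which recombines in pancreatic precursors and so also marks other endocrine and exocrine cells with RFP, was carried by the other 6 libraries. The methods describe RIP-Cre mice 6 months old, with many animals per genotype. How animals were divided among libraries, and the age of the Pdx-Cre mice, are not given in the sources used here, so p-values measure the spread between these libraries, which may be technical.

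A Rab protein is a molecular switch that sits on a particular membrane while it holds GTP and is taken back into the cytosol by GDP dissociation inhibitor (GDI) once the GTP is hydrolysed. Guanine nucleotide exchange factors (GEFs) turn it on, GTPase-activating proteins (GAPs) turn it off, and effectors that bind the active form tether vesicles, recruit motors or prepare fusion. In beta cells, Rab3 and Rab27a guide insulin granules to the plasma membrane, Rab1 and Rab2 serve the route through the endoplasmic reticulum and Golgi, Rab5 marks early endosomes, Rab11 and Rab4 recycling endosomes and Rab7 late endosomes and lysosomes.

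Values are FPKM (fragments per kilobase of transcript, scaled to mapped fragments) as deposited. Differences are on the log2(rescaled FPKM + 1) scale, with the libraries rescaled to each other, and understate the change of genes at low FPKM. Tests are limma fits over 11254 genes with a mean of at least 1 FPKM, adjusted by the Benjamini-Hochberg method, and a gene is called at an adjusted p under 0.05. Of the 57 Rab genes, 45 entered the test and 12 lay below the minimum. The fragments that the tables' confidence limits imply came to between 6718758 and 9603926 per library. Foxo1 stood at 12.0 to 20.1 FPKM in control libraries and 0.0925 to 4.24 in Foxo knockout libraries, whereas Foxo3 stood at 12.7 to 23.0 and 9.78 to 30.6, so its level did not check that label. Aldh1a3 stood at 0.490 to 4.09 FPKM in ALDH- and 22.1 to 76.9 in ALDH+ libraries. The beta cell transcript Iapp was at 33196 FPKM or more throughout. The summed endothelial list (4 genes) did not exceed 1.48 FPKM, all but its Pecam1 below 1, and the summed mesenchymal list (5 genes) did not exceed 0.736. Of the 5 immune genes, Ptprc, Lyz2 and Itgam stayed below 1 FPKM, while Cd68, a lysosomal protein of macrophages, ran from 19.0 to 148 and Cd74 from 0.416 to 20.3.

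The Pdx-Cre libraries stood apart from the RIP-Cre libraries in some other islet transcripts. In ALDH- cells the alpha cell hormone Gcg was at 667 to 888 FPKM with RIP-Cre and 9533 to 35838 with Pdx-Cre. The summed delta cell list stood there at 436 to 1077 and 8443 to 14029. The pancreatic polypeptide cell list stood at 539 to 2175 and 2988 to 18184. Ttr, of the alpha cell list, overlapped there at 378 to 531 and 160 to 711. The beta cell glucose transporter Slc2a2 ran from 99.95 to 227 FPKM over all RIP-Cre libraries and 8.61 to 24.6 over all Pdx-Cre libraries. Ucn3, Slc30a8 and Nkx6-1 were also lower with Pdx-Cre, without overlap. The other usable genes of the beta cell list, Iapp, Pdx1, Mafa and G6pc2, overlapped, G6pc2 at 1096 to 1878 with RIP-Cre and 313 to 1725 with Pdx-Cre. So did the summed duct cell list. The acinar protease precursor Ctrb1 reached 331, 601 and 1223 FPKM in Foxo knockout ALDH- replicate 5, Foxo knockout ALDH+ replicate 5 and control ALDH+ replicate 2, and at most 8.14 in the others. All 3 of those libraries were Pdx-Cre. The summed immune list also differed, at 21.2 to 38.3 FPKM with RIP-Cre and 42.0 to 160 with Pdx-Cre, nearly all of it Cd68 and Cd74. In such bulk samples, fewer cells of a type and less RNA per cell cannot be told apart.

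The sorted cells held a broad set of Rab transcripts, led by those of the housekeeping routes. Of the 45 tested genes, 3 had a median above 100 FPKM, 29 lay between 10 and 100 and 13 below 10. Rab7 had the highest FPKM of all, with a median of 1219 and a range of 941 to 1960 over the 15 libraries. Rab1, the GTPase of transport from the endoplasmic reticulum to the Golgi, followed with a median of 287 and a range of 239 to 329, and its partner on that route Rab2a with a median of 234 and a range of 183 to 307. Those 3 genes made up 55.5% to 67.9% of the summed Rab FPKM of a library. The FPKM of Rab7 rested on a short length in the tables. Its fragments divided by its FPKM came to 0.163 of the median gene's, and its median of 5052 fragments was below the 7238 of Rab1, so the order of those 2 genes differs between FPKM and fragments.

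**Figure D1:**
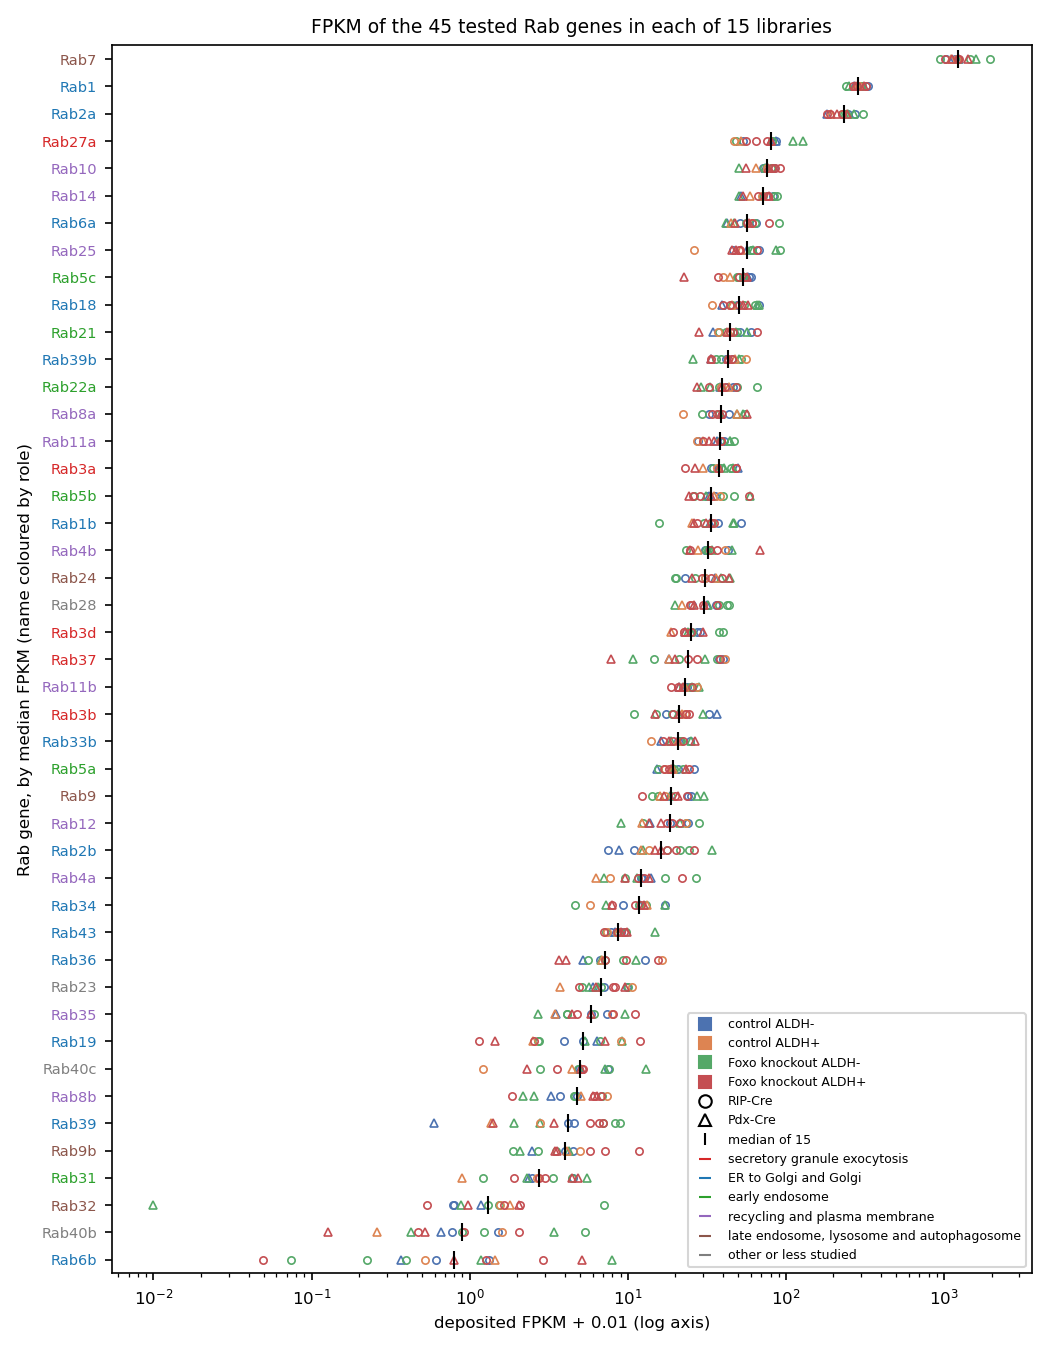
Deposited FPKM of the 45 tested Rab genes (rows, ordered by median, names coloured by role) in each of 15 libraries, on a log axis with 0.01 added; circles are RIP-Cre, triangles Pdx-Cre, colours the 4 groups and ticks the medians. Rab7, Rab1 and Rab2a lie to the right of the other genes, and in the Rab39 row the triangles sit left of most circles.

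Neighbours in the order of levels were seldom distinct. Of the 44 neighbouring pairs, 42 had overlapping ranges over the 15 libraries. Only Rab7 above Rab1, and Rab2a above Rab27a, were separated in these libraries. The median Rab gene varied 2.62-fold between its lowest and highest library. Rab1 varied least, 1.38-fold, and Rab6b, the neuronal relative of the Golgi GTPase Rab6a, most among tested genes above 0 throughout, 202-fold from 0.0392 to 7.93 FPKM. The 3 libraries with acinar transcripts included the 2 highest values of Rab6b, 7.93 in Foxo knockout ALDH- replicate 5 and 5.14 in Foxo knockout ALDH+ replicate 5. The third of them, control ALDH+ replicate 2, read 1.45, below the 2.90 of Foxo knockout ALDH+ replicate 1, a RIP-Cre library.

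Of the 8 GTPases of granule exocytosis, 5 were tested. Rab27a, which docks insulin granules at the plasma membrane, was the most abundant at a median of 80.7 FPKM (range 46.9 to 129). Rab3a stood at 37.9 (23.0 to 50.0), Rab3d at 25.0 (18.8 to 40.2) and Rab3b at 21.2 (10.9 to 36.8), all of them regulators of granule docking and priming. Rab37, also found on secretory granules, stood at 23.9 (7.86 to 41.4). The paralogs of the same families were nearly absent. Rab27b did not exceed 0.377 FPKM, Rab3c 2.53 and Rab26 2.12, and Rab27a made up 99.3% to 100% of the Rab27 sum. Within the Rab3 family, Rab3a held a median of 43.6% of the sum, Rab3d 28.8%, Rab3b 23.9% and Rab3c 0.343%.

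On the other routes the balance within a family varied, from Rab6a with a median of 98.7% of the Rab6 sum to the more even Rab5 genes. On the Golgi route 14 of 16 genes were tested, with Rab6a at a median of 56.9 FPKM (41.9 to 91.1) and Rab1b at 33.4 (15.8 to 51.9). Of the early endosome genes 6 of 8 were tested, with Rab5c at 53.6 (22.6 to 60.5), Rab5b at 33.9 (24.5 to 59.4) and Rab5a at 19.4 (15.3 to 26.1). Of the recycling and plasma membrane genes 11 of 13 were tested. Rab10, which acts in delivery to the plasma membrane, stood at 75.9 (50.8 to 91.9), the epithelial Rab11 relative Rab25 at 56.4 (26.2 to 91.5), Rab11a at 38.4 (27.2 to 47.0), Rab11b at 22.9 (18.9 to 28.3) and Rab4a at 12.1 (6.30 to 26.9). Rab5c held a median of 48.8% of the Rab5 sum, Rab5b 31.0% and Rab5a 17.8%, and Rab25, Rab11a and Rab11b held 48.1%, 31.1% and 19.4% of theirs. Of the Rab4 sum Rab4b held a median of 74.5% and Rab4a 25.5%, with 65% of the exon bases of Rab4b shared with Gm21983 on the same strand in GENCODE vM21. Of the late endosome, lysosome and autophagosome genes 5 of 7 were tested, and of the less studied remainder 4 of 5. The 12 genes below the minimum were Rab3c, Rab7l1, Rab13, Rab15, Rab17, Rab20, Rab26, Rab27b, Rab30, Rab33a, Rab38 and Rab44, of which Rab44 was listed at 0 in all 15 libraries.

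ALDH+ and ALDH- cells were compared because the study describes them, in wild-type mice, as dysfunctional and healthy beta cells. Here both classes also held Foxo knockout and Pdx-Cre libraries. No Rab gene was called. Averaged over the genotypes, 674 of the 11254 genes were called, 5.99% (2.22% higher and 3.77% lower in ALDH+), and 0 of the 45 Rab genes. At an unadjusted p under 0.05 there were 7 Rab genes, 15.6% against 20.8% of all genes. The Rab genes had a median difference of -0.11, beside -0.02 for all genes, and 32 of the 45 differences (71.1%) were below 0, against 52.5% of all genes. Of the 45 intervals at 95% confidence, 38 lay within 1 on the log2 scale on either side of 0, that is, within 2-fold on the scale of the fit. For genes at low FPKM that allows a larger change.

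The smallest p-values were those of Rab25 and Rab27a. Rab25, a GTPase of apical recycling, read 46.2, 67.8 and 56.4 FPKM in control ALDH- and 26.2 and 51.8 in control ALDH+ libraries. In Foxo knockout it read 59.9, 61.4, 91.5, 62.1 and 87.0 in ALDH- and 50.6, 65.6, 51.6, 48.2 and 45.5 in ALDH+ libraries. The ALDH+ values were the lower ones in both genotypes, with overlap through 1 or more libraries each time, and the averaged difference was -0.54 (SE 0.17, limma adjusted p = 0.0802). In Foxo knockout mice alone the difference stayed between -0.53 and -0.34 with any single library left out. The averaged difference was lowest and highest without 1 or the other of the 2 control ALDH+ libraries. Without replicate 2, a library with acinar transcripts, it was called at -0.78 (limma adjusted p = 0.0244), and without replicate 1 it was -0.27 (limma adjusted p = 0.585).

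Rab27a read 53.5, 86.5 and 87.2 FPKM in control ALDH- against 46.9 and 52.2 in control ALDH+ libraries. In Foxo knockout it read 82.3, 48.7, 81.5, 111 and 129 in ALDH- against 75.8, 55.6, 64.4, 81.0 and 80.7 in ALDH+ libraries. In deposited FPKM the control classes were just apart and the knockout classes overlapped, and the averaged difference was -0.48 (SE 0.16, limma adjusted p = 0.0887). Without Foxo knockout ALDH- replicate 2, the lowest of its group, it was called at -0.54 (limma adjusted p = 0.0278), and without the 3 libraries with acinar transcripts it was -0.34 (limma adjusted p = 0.367).

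The other granule genes were not called either. Rab3a differed by -0.25 (SE 0.19), Rab3d by -0.32 (SE 0.15), Rab3b by -0.10 (SE 0.21) and Rab37 by 0.00 (SE 0.27), with limma adjusted p between 0.242 and 0.997. No role group had a called gene. The differences of 4 of 5 granule genes, 6 of 6 early endosome genes and 2 of 5 late endosome genes were below 0, with medians of -0.25, -0.11 and 0.16. So were 9 of 14 Golgi route, 7 of 11 recycling and plasma membrane and 4 of 4 less studied genes. Their medians were -0.12, -0.04 and -0.32. Below 0 were 71.1% of the Rab genes and 52.5% of all genes, and no test was made of a group. Rab40c, which belongs to a family that recruits ubiquitin ligases, differed by -0.77 (SE 0.29, limma adjusted p = 0.138). Its 2 control ALDH+ libraries read 1.21 and 4.46 FPKM against 4.88 to 7.46 in control ALDH-. Of the genes with a difference above 0, Rab9b, a late endosome GTPase of retrograde transport, had the smallest p at 0.58 (SE 0.24, limma adjusted p = 0.177). Next came Rab8b at 0.44 (SE 0.27) and Rab39b at 0.18 (SE 0.15).

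**Figure D2:**
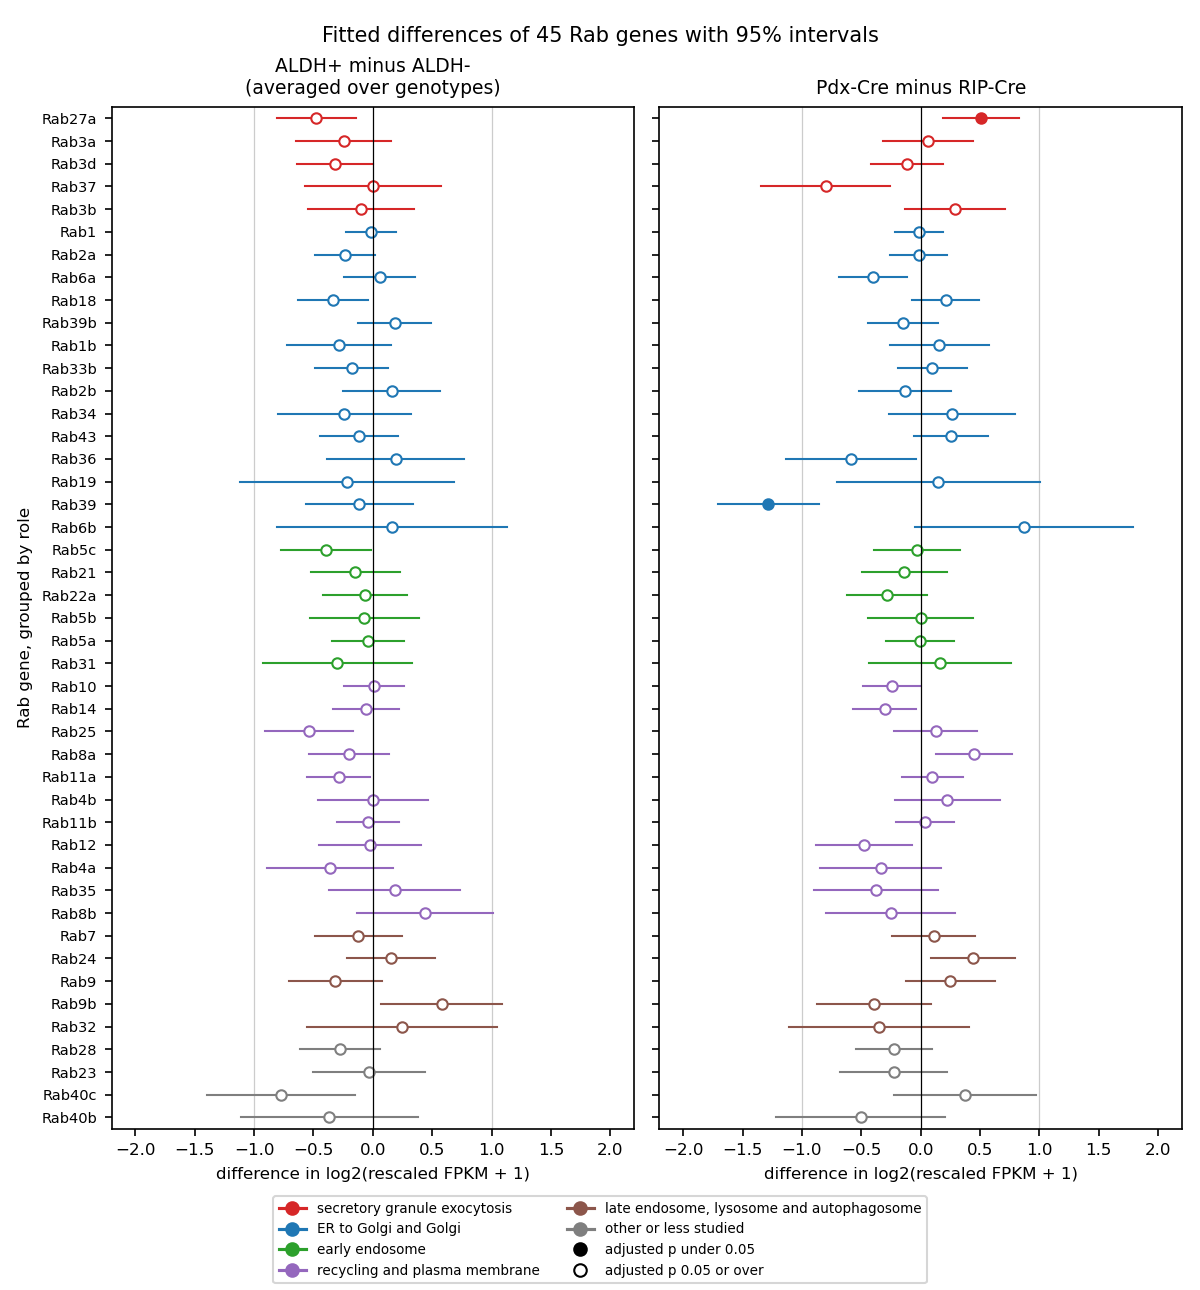
Fitted differences of the 45 tested Rab genes in log2(rescaled FPKM + 1), ALDH+ minus ALDH- on the left and Pdx-Cre minus RIP-Cre on the right, with 95% intervals over 15 libraries and colours for the roles. Filled points have an adjusted p under 0.05: 0 on the left, and Rab27a and Rab39 on the right.

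The direction of the ALDH difference moved with transcript length. Across the 45 Rab genes the averaged difference and the relative length in the tables had a Spearman correlation of 0.40, and across 11213 tested genes 0.40, a description over genes that share their libraries. The Rab genes had a median relative length of 0.834, against 0.968 for all tested genes. With the length trend removed, the median Rab difference was -0.07 beside -0.01 for all genes, and 16 of 45 Rab differences were above 0.

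Within the genotypes the result was the same in kind. In control mice 135 genes were called, 1.2% (0.453% higher and 0.746% lower), and 0 Rab genes, with 2 Rab genes at an unadjusted limma p under 0.05 (4.44% against 14.4% of all genes). Between the 2 ALDH+ and 3 ALDH- control libraries the rescaled values of 12 Rab genes did not overlap, 4 higher and 8 lower in ALDH+, beside 31.2% of all genes, so that count was near its background. In Foxo knockout mice 2 genes were called, 0.0178%, and 0 Rab genes, with 3 Rab genes at an unadjusted limma p under 0.05 (6.67% against 13.1% of all genes). The rescaled values of 0 Rab genes did not overlap there, beside 1.7% of all genes. In these mice the ALDH difference of Rab9b was 0.85 (SE 0.27, limma adjusted p = 0.22). Rab9b read 2.70, 1.88, 3.52, 4.25 and 2.06 FPKM in ALDH- and 11.7, 7.17, 5.73, 3.55 and 3.43 in ALDH+ libraries. The 3 RIP-Cre ALDH+ values were above every ALDH- value, and the 2 Pdx-Cre ALDH+ values lay among them. Its difference between cre drivers in the ALDH effect was -0.67 (SE 0.44), not called by limma at an adjusted p of 0.995.

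Foxo knockout and control libraries were compared within each ALDH class to ask what loss of the Foxo factors did to the Rab genes. No Rab gene was called in either class. In ALDH- cells 1 of 11254 genes was called, 0.00889%, and 0 Rab genes, with 3 Rab genes at an unadjusted limma p under 0.05 (6.67% against 5.77% of all genes). In ALDH+ cells 0 genes were called, 0%, again with 3 Rab genes at an unadjusted limma p under 0.05 (6.67% against 6.56%). The Rab medians were 0.03 in ALDH- and 0.15 in ALDH+ cells, against -0.01 and 0.01 for all genes. Within 2-fold on the scale of the fit, at 95% confidence, lay 36 Rab genes in ALDH- and 28 in ALDH+ cells.

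Rab2b, the minor Rab2 paralog of the Golgi route, showed the clearest separation in ALDH- cells. It read 7.47, 11.0 and 8.79 FPKM in control ALDH- and 24.4, 17.8, 21.3, 34.1 and 12.5 in Foxo knockout ALDH- libraries. All 5 knockout values were above all 3 control values, and the difference was 1.13 (SE 0.25, unadjusted p = 0.000406, limma adjusted p = 0.269). In ALDH+ cells it read 13.5 and 12.1 in control and 20.04, 17.7, 26.3, 14.9 and 16.3 in knockout libraries. These groups did not overlap either, at a difference of 0.53 (SE 0.29, limma adjusted p = 0.833). The genotype difference was not called as differing between the classes, at -0.60 (SE 0.39, limma adjusted p = 0.998). Leaving out single libraries moved the ALDH- difference between 0.94 and 1.27, with limma adjusted p from 0.0956 to 0.999. With RIP-Cre libraries alone it was 1.16, and with Pdx-Cre libraries alone 1.04. Rab2b made up a median of 4.24% of the Rab2 sum in control ALDH- and 8.33% in knockout ALDH- libraries, while Rab2a differed by 0.15 (SE 0.15).

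Rab2b lay at chr14:52881434-52899070 in the mm9 coordinates of the tables. In GENCODE vM21 (GRCm38) its exons overlap those of Gm43766 on the other strand over 59.3% of their bases and those of Tox4 over 4.7%. The counting is not stated to use strand, so reads of those genes cannot be told apart from those of Rab2b.

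**Figure D3:**
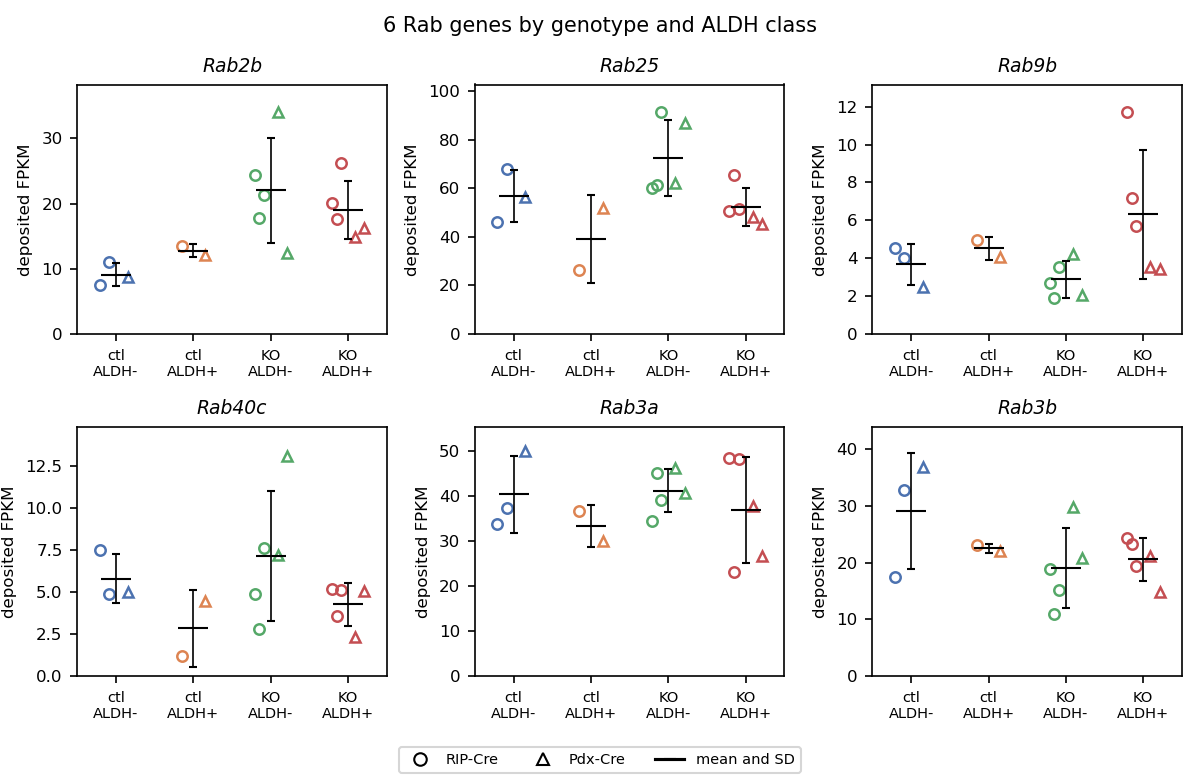
Deposited FPKM of Rab2b, Rab25, Rab9b, Rab40c, Rab3a and Rab3b by genotype (ctl, control; KO, Foxo knockout) and ALDH class; circles are RIP-Cre and triangles Pdx-Cre libraries, and bars give the mean and SD. The Rab2b knockout values, 12.5 to 34.1 in ALDH-, all sit above the ALDH- control values of 7.47 to 11.0.

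In ALDH- cells the other Rab genes moved less or overlapped. In ALDH+ cells Rab4a and Rab27a differed more than Rab2b, also without overlap. In rescaled values, 2 of 45 Rab genes did not overlap between knockout and control ALDH- libraries, Rab2b and Rab1, against 3.11% of all genes. Rab1 differed by -0.17 (SE 0.13, limma adjusted p = 0.964), and its deposited values did overlap, at 239 to 304 FPKM in the knockout and 271 to 329 in the control. In ALDH+ libraries 6 did not overlap against 8.2% of all genes: Rab2b, Rab4a, Rab11a, Rab27a and Rab28 read higher in the knockout and Rab39b lower. Rab39, a Golgi and autophagy GTPase, differed by 0.85 (SE 0.28, limma adjusted p = 0.758) in ALDH- and by 0.73 (SE 0.32, limma adjusted p = 0.751) in ALDH+ cells. The granule gene Rab3b differed by -0.62 (SE 0.28, limma adjusted p = 0.831) in ALDH- cells, where control libraries read 17.5, 32.9 and 36.8 FPKM and knockout libraries 18.9, 10.9, 15.1, 29.7 and 20.8. Rab27a differed by 0.59 (SE 0.24, limma adjusted p = 0.709) and Rab4a, a GTPase of fast recycling, by 0.84 (SE 0.38, limma adjusted p = 0.752) in ALDH+ cells. The interaction of genotype and ALDH class called 0 genes, 0%, and 0 Rab genes had an unadjusted limma p under 0.05. It was also the least precise of the contrasts within genotype and class, with 23 Rab intervals inside 2-fold on the scale of the fit.

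Since the knockout removes Foxo factors, the promoters of the Rab genes were searched for the FoxO core motif, GTAAACA on either strand. Promoters were RefSeq windows from 250 bases before to 50 after each start (GRCm38.p6), and 47 of 57 Rab genes matched with 59 windows. The motif was in 2 of them, 3.39%, against 3.65% of all 32851 windows, in Rab43 at 136 bases and Rab39b at 246 bases before the start. Both are shown because they alone carry the letters, in capitals and read along the gene's strand, where the motif stands as its reverse complement.
Rab43, chr6:87809867-87809913, minus strand: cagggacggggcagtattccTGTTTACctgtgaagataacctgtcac
Rab39b, chrX:75578451-75578481, minus strand: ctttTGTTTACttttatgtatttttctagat
Neither gene was called between genotypes. Rab39b differed by -0.36 (SE 0.22, limma adjusted p = 0.852) in ALDH+ cells. Rab43 read 7.11 to 9.93 FPKM in 14 of 15 libraries and 14.96 in Foxo knockout ALDH- replicate 4. In GENCODE vM21, 75.4% of its exon bases are shared with Gm45140 on the same strand. The E-box CACGTG was in 10.2% of the Rab windows against 7.15% of all, and TGACGTCA, the cAMP response element, in 3.39% against 1.79%. The windows of Rab2b and Rab39 held none of the 3.

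The start regions of the 3 Rab genes on which the comparisons turn most, Rab2b between genotypes and Rab39 and Rab27a between cre drivers, are given from 80 bases before the start, with the first 20 transcribed bases in capitals (RefSeq, GRCm38.p6, 100 bases each).
Rab2b, chr14:52279376-52279475, minus strand: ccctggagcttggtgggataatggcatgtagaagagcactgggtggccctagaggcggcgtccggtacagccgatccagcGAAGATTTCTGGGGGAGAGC
Rab39, chr9:53706213-53706312, minus strand: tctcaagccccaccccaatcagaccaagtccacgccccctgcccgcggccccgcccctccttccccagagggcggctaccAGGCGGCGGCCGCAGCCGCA
Rab27a, chr9:73044730-73044829, plus strand: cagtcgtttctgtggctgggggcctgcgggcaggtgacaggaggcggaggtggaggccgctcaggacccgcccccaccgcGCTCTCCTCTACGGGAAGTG
RefSeq gives Rab27a a second start at some distance downstream, whose window held the E-box 246 bases before that start.

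The cre drivers were compared because they differ in where recombination takes place. Here 2 Rab genes passed the test, Rab39 lower and Rab27a higher with Pdx-Cre. Over all genes 1092 were called, 9.7%, of which 632 were higher (5.62%) and 460 lower (4.09%) with Pdx-Cre, and 2 of 45 Rab genes is a share below that background. At an unadjusted p under 0.05 there were 10 Rab genes, 22.2% against 25.7% of all genes. Over all 15 libraries 0 Rab genes had drivers that did not overlap, beside 1.96% of all genes. The libraries of the drivers differ in islet and acinar transcripts, as given above, and the part of cell makeup in the results was not tested.

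Rab39 lay at chr9:53492215-53514337 (mm9). With RIP-Cre it read 4.57 and 4.16 FPKM in control ALDH-, 2.78 in control ALDH+, 6.9998, 8.89 and 8.32 in Foxo knockout ALDH- and 6.93, 6.59 and 5.74 in Foxo knockout ALDH+ libraries. With Pdx-Cre it read 0.587 in control ALDH-, 1.35 in control ALDH+, 1.89 and 2.79 in Foxo knockout ALDH- and 3.42 and 1.40 in Foxo knockout ALDH+ libraries. Within each of the 4 groups every Pdx-Cre value was below every RIP-Cre value, where such a separation of 2 from 3 knockout libraries held for 28.7% of all genes in ALDH- and 29.2% in ALDH+ cells. The difference was -1.28 (SE 0.20, limma adjusted p = 0.00121), a fold of 0.411 on the scale of the fit. Without the 3 libraries with acinar transcripts it was -1.36 (limma adjusted p = 0.0182). Among ALDH- libraries alone, in which Gcg was higher with Pdx-Cre, it was -1.52 (limma adjusted p = 0.0273), and among ALDH+ libraries alone -1.02 (limma adjusted p = 0.189). Gcg, for comparison, stood in control ALDH+ cells at 5822 FPKM with Pdx-Cre and 315 with RIP-Cre. In Foxo knockout ALDH+ cells it stood at 268 and 598 with Pdx-Cre and 154 to 1016 with RIP-Cre. Over all ALDH+ libraries Slc2a2 stayed apart, at 99.95 to 144 FPKM with RIP-Cre and 8.61 to 24.6 with Pdx-Cre, while Iapp and G6pc2 overlapped. The Rab39 paralog Rab39b was 82.3% to 98.3% of the family's sum and differed by -0.15 between drivers.

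Rab27a lay at chr9:72892672-72945399 (mm9). With RIP-Cre it read from 46.9 to 86.5 FPKM, with a median of 64.4, and with Pdx-Cre from 52.2 to 129, with a median of 84.1. The Pdx-Cre values were above all RIP-Cre values of the same group in each of the 4 groups, most widely in Foxo knockout ALDH- with 111 and 129 against 82.3, 48.7 and 81.5. Such a separation of 2 from 3 knockout libraries held for 28.7% of all genes in ALDH- and 29.2% in ALDH+ cells. The control groups held fewer libraries, so that separation came more easily there. The difference was 0.51 (SE 0.15, limma adjusted p = 0.0442). It lay close to the threshold. Leaving out single libraries gave 0.42 to 0.55, with limma adjusted p from 0.0357 to 0.123, and it stayed called only without control ALDH- replicate 2 or Foxo knockout ALDH+ replicate 1. Without the 3 libraries with acinar transcripts the difference was 0.49 (limma adjusted p = 0.257). It was 0.70 (limma adjusted p = 0.152) among ALDH- and 0.29 (limma adjusted p = 0.451) among ALDH+ libraries.

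**Figure D4:**
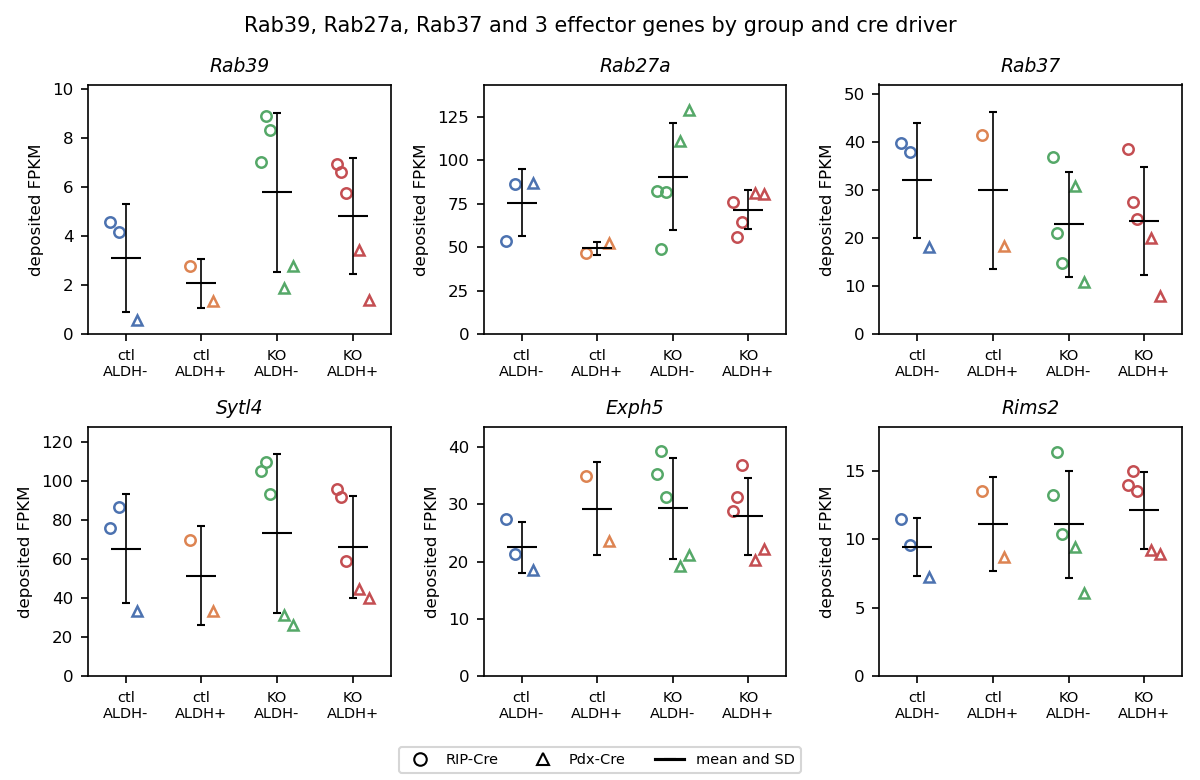
Deposited FPKM of Rab39, Rab27a and Rab37 and of the effector genes Sytl4, Exph5 and Rims2 by genotype (ctl, control; KO, Foxo knockout) and ALDH class; circles are RIP-Cre and triangles Pdx-Cre libraries, and bars give the mean and SD over both drivers. Triangles lie below the circles of their group for Rab39, Sytl4, Exph5 and Rims2 and above them for Rab27a.

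Among the Rab genes that were not called, Rab37 had the smallest adjusted p between drivers, at -0.80 (SE 0.26, limma adjusted p = 0.0606). It read 14.7 to 41.4 FPKM with RIP-Cre and 7.86 to 30.8 with Pdx-Cre, which overlap. The largest difference among them was 0.87, of a Golgi route gene. Rab6a differed by -0.40 (SE 0.13, limma adjusted p = 0.071), and Rab8a, which serves transport to the plasma membrane, by 0.45 (SE 0.15, limma adjusted p = 0.0719). Rab24, a GTPase tied to autophagy, differed by 0.44 (SE 0.17, limma adjusted p = 0.106), but 62.4% of its exon bases in GENCODE vM21 overlap Prelid1 on the other strand. Of the 5 granule genes 3 had a difference above 0 and 2 below. Rab3a at 0.06 (SE 0.18), Rab3d at -0.12 (SE 0.14) and Rab3b at 0.29 (SE 0.20) were not called.

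The ALDH effect was not called as differing between cre drivers for any gene, 0%, with 3 Rab genes at an unadjusted limma p under 0.05 (6.67% against 4.54%). These were Rab3b at -0.97 (SE 0.33), Rab36 at -1.16 (SE 0.44) and Rab24 at -0.72 (SE 0.29), each with a limma adjusted p of 0.995. Rab3b read 14.8 to 22.0 FPKM in Pdx-Cre ALDH+ and 20.8 to 36.8 in Pdx-Cre ALDH- libraries. In RIP-Cre libraries it read 19.4 to 24.4 in ALDH+ and 10.9 to 32.9 in ALDH- cells.

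The genes that run the Rab cycle were followed in 4 lists with 127 genes, of which 104 were tested. In the averaged ALDH comparison 1 of the 104 was called (0.962%, against 5.99% of all genes), 1 effector of 40 tested. Golgb1, which encodes the Golgi tether giantin, was higher in ALDH+ cells at 0.69 (SE 0.13, limma adjusted p = 0.00656). It read 56.9 to 104 FPKM in ALDH+ and 29.8 to 54.2 in ALDH- libraries, which do not overlap, beside 0.693% of all genes in rescaled values. Its highest value was in control ALDH+ replicate 1, and without that library only 3 genes of all were called. With the length trend removed 185 were. Whether Golgb1 was among either is not given here. In both genotype comparisons and both interactions 0 genes of the lists were called. The study's own DESeq list for wild-type ALDH+ against ALDH- cells has Golgb1 and the effector gene Appl2 as higher in ALDH+. It has the escort gene Rabac1 as lower. Appl2 and Rabac1 were not called in the ALDH comparisons here, which used another test on other values.

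Between cre drivers 9 of the 104 genes were called, 8.65% against 9.7% of all genes. Among 40 effectors, 3 were lower with Pdx-Cre and 2 higher. Sytl4, which encodes granuphilin, a Rab27a effector that docks insulin granules, had the lowest p of them. It read 58.8 to 110 FPKM with RIP-Cre and 26.1 to 44.6 with Pdx-Cre, without overlap, a difference of -1.25 (SE 0.15, limma adjusted p = 0.00013). Exph5, which encodes the Rab27 effector Slac2-b, differed by -0.56 (SE 0.12, limma adjusted p = 0.0111) and Rims2, a Rab3 effector of the exocytic site, by -0.57 (SE 0.14, limma adjusted p = 0.0212). Rab11fip1, a Rab11 effector, and Appl2, a Rab5 effector, were higher by 0.73 (SE 0.19) and 0.70 (SE 0.18).

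Of 33 GAP genes 1 was called, Tbc1d8 at -1.06 (SE 0.18, limma adjusted p = 0.00169), and of 23 GEF genes 2, Dennd4c at -0.52 (SE 0.13) and Dennd4a at -0.61 (SE 0.16), all lower with Pdx-Cre. Of the 8 escort, GDI and prenylation genes 1 was called, Rabac1, which helps release Rab proteins from GDI, at 0.74 (SE 0.21, limma adjusted p = 0.0327). By list the shares called were 12.5% of effectors, 3.03% of GAPs, 8.7% of GEFs and 12.5% of escort, GDI and prenylation genes. Among ALDH- libraries alone Sytl4 differed by -1.54 (limma adjusted p = 0.00309), and among ALDH+ libraries alone by -0.93 (limma adjusted p = 0.0842), where it was not called. The other 8 genes were called in neither set, with limma adjusted p from 0.0909 to 0.277 and from 0.0894 to 0.404.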

How the data were processed

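RNA from sorted islet cells was sequenced as poly-A libraries. The submitters' processing notes name bcl2fastq 1.8.4, TopHat2 2.0.4 and mm9, and the authors deposited per library a table of FPKM with confidence limits; the quantifier and annotation are not given in the sources used here. Of 23699 lines, symbols listed more than once (248, on 712 lines) and 63 lines with a failed or too deep status, among them Ins1 and Ins2, were left out, which kept 22924 genes. Fragments were recovered from the limits as (2 × FPKM / (upper limit - FPKM)) squared, and 67% of values under 500 fragments came within 0.02 of a whole number. Fragments divided by FPKM, relative to the median gene, gave the relative length.

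FPKM values were rescaled by TMM factors (0.918 to 1.05) computed on them and tested on log2(FPKM + 1) with limma 3.58.1 in R 4.3.3 (trended variance), for genes with a mean of at least 1 FPKM. Its terms were the 4 groups plus the driver, to which a further fit added driver by ALDH. Fits were tested on simulated data. The DESeq test of the study needs counts, which these tables lack, and was not repeated. The Rab genes, their roles, the lists and the tests were chosen with earlier results of these data known. Named genes were those called, the 3 smallest p-values in each direction per comparison, the granule genes, a marker family per compartment and called genes of the lists. Any other gene named was chosen after its values were seen. Alternatives were a pseudocount of 0.1, no filter, no rescaling or median of ratios, the length trend removed, other sets of libraries or terms, a replicate block and each library left out in turn. Implied fragments per library had a median of 7833279, and strand is not stated.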

Additional observations from a re-analysis of the deposited data

Results flagged for a closer look

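In groups of 5 libraries, a value was singled out where its gap to the nearest other value, over the group's range, passed Dixon's critical value of 0.71. Of 90 groups examined over the tested Rab genes 6 passed, and chance alone passes about 1 in 20. In Foxo knockout ALDH+ libraries, Rab8a read 57.2 FPKM in replicate 4 (others 34.3 to 39.5), Rab5b 58.4 in replicate 3 (others 24.5 to 33.9), Rab4b 69.1 in replicate 5 (others 24.8 to 36.9) and Rab8b 1.85 in replicate 3 (others 5.99 to 6.78). In Foxo knockout ALDH- libraries, Rab32 read 7.09 FPKM in replicate 1 (others 0 to 1.52) and Rab6b 7.93 in replicate 5 (others 0.0637 to 1.17). In GENCODE vM21, 65% of the exon bases of Rab4b are shared with Gm21983 on the same strand. Both libraries of replicate 5 hold acinar transcripts, whose part in the values of Rab4b and Rab6b was not tested.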

How the results depend on the processing

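The count of Rab genes called stayed at 0 in the comparisons of genotype, of ALDH class within a genotype and in both interactions under every alternative run. In the averaged ALDH comparison, leaving out single libraries gave 0 to 1 (Rab27a without Foxo knockout ALDH- replicate 2, Rab25 without control ALDH+ replicate 2), and leaving out the 3 libraries with acinar transcripts gave 1, Rab25. Between cre drivers the 2 calls became 1 (Rab39) under the replicate block, 1 under the replicate block within cre driver, 1 without the libraries with acinar transcripts and 1 among ALDH- libraries only; among ALDH+ libraries only there were 0. Leaving out single libraries gave 1 to 4, with Rab12, Rab37, Rab39 and Rab8a called without Foxo knockout ALDH- replicate 3. Rab27a lost its call there also without a filter on low values (limma adjusted p = 0.0752) and without rescaling (limma adjusted p = 0.0694). Over all genes the averaged ALDH comparison called 674, but 185 with the length trend removed, 156 with RIP-Cre libraries only, 182 without the driver in the model, 4 with Pdx-Cre libraries only, 411 without the libraries with acinar transcripts and 3 to 843 with single libraries left out, the lowest without control ALDH+ replicate 1. In control mice, 135 became 0 with the length trend removed or without the driver, 19 with RIP-Cre libraries only, 447 with the compared groups only and 0 to 247 with single libraries left out, with 0 without any 1 of the 3 control ALDH- libraries. In Foxo knockout mice, 2 became 0 to 7 over all alternatives. The genotype comparisons went from 1 to 0 to 4 in ALDH- and from 0 to 33 (no filter) in ALDH+ libraries. Between drivers, 1092 became 129 without the libraries with acinar transcripts, 134 among ALDH- and 74 among ALDH+ libraries. The cause of these changes was not tested.

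Of 1248 fitted differences of named Rab genes under alternatives, 1216 kept their direction and side of the threshold, 21 fell short of it, 8 passed it and 3 reversed, none of them called. With Pdx-Cre libraries only, the ALDH difference in knockout mice was -0.31 for Rab24 and -0.026 for Rab35, and without the libraries with acinar transcripts the driver by ALDH difference of Rab33b was -0.010. Equal replicate numbers did not pair the libraries: residual correlations of same-numbered libraries lay between -0.045 and 0.071, and 0 of 10 knockout libraries correlated best with their own number. The replicate block changed no other count of Rab genes. The alternatives with only Pdx-Cre libraries, only ALDH- or ALDH+ libraries, or without acinar transcripts were chosen after seeing the data. A fit of the compared groups only was not run for the averaged, interaction and driver comparisons. With 2 control ALDH+ libraries, 1 per driver, differences there were known to a median SE of 0.28 to 0.30, and genes near 1 FPKM rest on few fragments.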
